A study of Mus musculus with 2 samples.

Results

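The messages for mitochondrial ribosomal proteins were followed in primary hepatocytes of mice with a liver-specific knockout of Drp1. Its product, DRP1, is the dynamin-related GTPase that divides mitochondria. The genes were chosen by name: every probe of the array for mouse genes whose listed symbol is Mrpl or Mrps followed by a number and, in some, a letter. This gave 77 genes, measured by 119 of the 56605 probes and among 37074 listed names. The names stand for the proteins of the mitochondrial ribosome in 76 of the 77 genes. Mrps36 carries the name but is known as a component of the oxoglutarate dehydrogenase complex, so it was counted with the 77 and left out of both subunits.

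Hepatocytes were isolated by collagenase perfusion from control mice (Drp1flox/flox littermates, which GEO lists as a wild type control) and from Drp1LiKO mice (Alb-Cre Tg/+ Drp1flox/flox), both on a C57BL/6 background. Both genotypes thus carried the floxed alleles, and they differed in the Cre transgene, whose albumin promoter is active in hepatocytes. Cells were untreated and were harvested 24 h after seeding, and the age of the mice for these cultures is not given in the sources used here. From total RNA of each genotype, complementary RNA was amplified, labeled with Cy3 and hybridized to 1 array with 60-base probes. Neither genotype had a second array, so no test was made, and every difference given here is one between these 2 arrays.

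The mitochondrial ribosome translates the few messages of mitochondrial DNA, which encode core subunits of the respiratory chain and of ATP synthase. Its ribosomal RNAs come from mitochondrial DNA, whereas its proteins are encoded in the nucleus, made in the cytosol and imported. Some of the proteins have homologues in the bacterial ribosome, and others were added during the evolution of mitochondria. Hepatocytes are rich in mitochondria, and the balance of nuclear and mitochondrial products in the respiratory chain depends on this ribosome.

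What an array reads of such a gene is a short designed oligonucleotide. The 4 probes below lie in genes at the ends of the range described in the next paragraphs, and each covers a stretch of the message that a single designed sequence stands for. Mrpl28, on the plus strand of mm9 chr17:26261526-26261585, had the lowest ratio of the genes seen on both arrays. Mrps7, on the plus strand of chr11:115468169-115468228, was lower at both of its probes. Mrps18b is read here by the dimmest of its 3 compared probes, on the minus strand of chr17:36051313-36051461, and Mrps31 by its brightest, on the plus strand of chr8:23538340-23539688. The last 2 spans are longer than the probe because the probe crosses an intron.
Mrpl28 probe: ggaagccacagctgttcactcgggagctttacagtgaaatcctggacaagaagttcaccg
Mrps7 probe: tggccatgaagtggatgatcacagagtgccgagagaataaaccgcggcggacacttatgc
Mrps18b probe: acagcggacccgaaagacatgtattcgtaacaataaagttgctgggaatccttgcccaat
Mrps31 probe: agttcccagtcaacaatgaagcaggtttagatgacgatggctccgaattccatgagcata

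Signals are given on a relative scale on which the 75th percentile of all probes of an array is 100, which was a processed intensity of 313 in control and 356 in Drp1LiKO cells. A log2 ratio is Drp1LiKO minus control, each gene is represented by its brightest probe, and levels of different probes are not compared with each other. Well above background were 48.2% of probes in control and 52.1% in Drp1LiKO cells, and 109 of the 119 probes of the mitochondrial ribosomal proteins on each array. None of these probes had a saturated or outlier spot. The 110 probes seen on at least 1 array covered all 77 genes, and the other 9 were second probes of genes read elsewhere. The targeted gene, listed as Dnm1l, had a relative signal of 830 in control and 342 in Drp1LiKO cells at its brightest probe, a log2 ratio of −1.28. Its Z score of −1.95 was just short of 2, the threshold that the study's methods use, which here stood for a log2 ratio of 1.30 or −1.31.

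Cell type markers moved between the arrays far more than the ribosomal proteins did. Of all genes compared, 44.5% were higher in Drp1LiKO cells and 55.5% lower. Hepatocyte markers were compared for 14 of 15 genes and had a median log2 ratio of 0.10, from −1.05 to 1.83, and their summed relative signal was 216320 in control and 220569 in Drp1LiKO cells. Of this sum, Serpina1a made up 108021 and 95413 and Alb 70085 and 74991. Markers of Kupffer cells and macrophages were higher in Drp1LiKO cells for 13 of 13 genes compared, of 14 listed, with a median log2 ratio of 2.32 and a summed relative signal of 3548 against 8138. Endothelial markers were higher for 10 of 10 genes, with a median of 1.46 (1468 against 2706), and stellate cell markers for 7 of 8 compared of 9 listed, with a median of 1.45 (7006 against 8473). Of the stellate sum, Acta2 alone made up 6841 and 6928. Egfl7 made up 1204 and 1952 of the endothelial sum, and Cd14 2045 and 2367 of the sum for Kupffer cells and macrophages. Markers of T and NK cells were seen for 2 of 7 genes, both lower in Drp1LiKO cells, with a median of −0.42 (424 against 309). Mitotic genes were lower for 8 of 8, with a median of −2.21 (2621 against 585). The part of such cells in the values below was not tested, and in a bulk sample fewer cells of a type and less RNA per cell cannot be told apart.

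The mitochondrial ribosomal protein messages differed little between the genotypes. Their median log2 ratio was −0.02, with an SD of 0.19 over the 77 genes, beside a median of −0.05 and an SD of 0.69 over the 20165 genes compared. In Drp1LiKO cells 34 genes were higher and 43 lower, or 55.8% lower, and 55.5% of all genes were lower. None of the 77 reached a Z score of 2 in either direction, whereas 3.5% of all genes did so as higher and 2.81% as lower. A 1.5-fold difference was passed by 0 genes as higher and by 1 as lower, Mrpl35, where 10.3% of all genes passed it as higher and 10.3% as lower.

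On both arrays 76 of the genes were well above background, and these 76 lay within 1.5-fold, from −0.36 to 0.37, while 16.8% of the 17735 genes measured that way lay outside it. The noise of a ratio depends on the signal. Among the 7101 genes with a mean relative signal of at least 400, a limit chosen after the values were seen, 8.52% lay outside 1.5-fold and the SD of the log2 ratio was 0.39. The 73 mitochondrial ribosomal proteins among them had an SD of 0.18. In this bright range the spots of probes printed 10 times gave a log2 ratio an SD of 0.107 up to a relative signal of 1600 and of 0.053 above it. From 400 to 1600 this noise rests on only 4 probes of each array. The differences of 37 of the 77 genes, 15 higher and 22 lower, were over 2 times the spot noise at their signal. The 22 include Mrpl35, a dim gene whose ratio is a bound. Spot noise leaves out the variation between mice and cultures. The share of all genes past this limit was not computed, so the count is not read as a result about these genes.

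**Figure D1:**
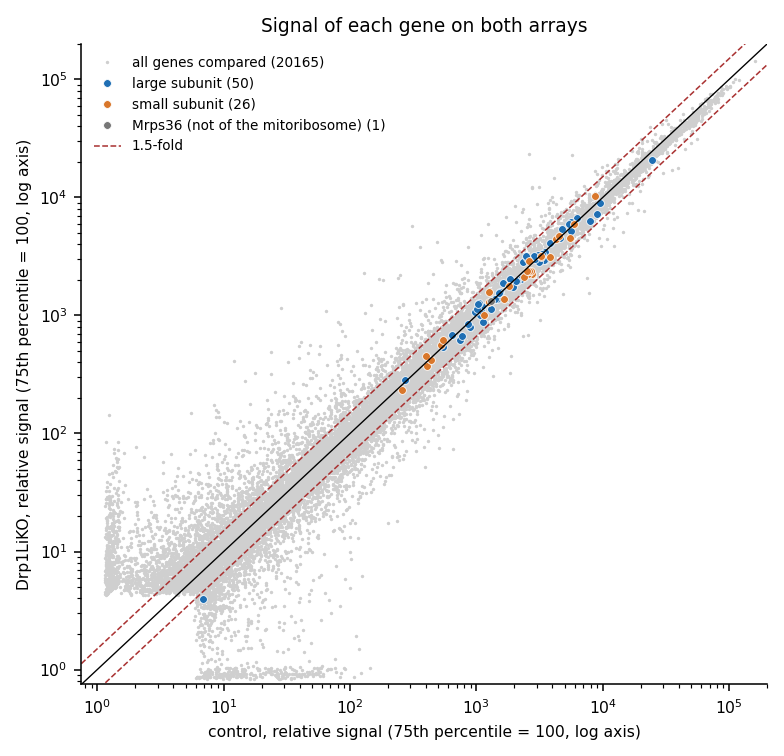
Relative signal of each gene on the control array (horizontal) and on the Drp1LiKO array (vertical), both on log axes, with the 75th percentile of each array at 100. Grey points are the 20165 genes compared, colored points the 77 genes with Mrpl and Mrps names, the black line equality and the dashed lines a 1.5-fold difference. All colored points but Mrpl35, at the lower left, lie between the dashed lines.

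By size of difference, 27 of the 77 genes lay within 0.1 of 0 on the log2 scale and 56 within 0.2. At least 0.2 higher were 8 genes, and at least 0.2 lower were 13. The 2 ends of this range held genes of both subunits.

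At the lower end stood Mrpl35, a large subunit protein with a bacterial homologue. It passed the background limit in control cells alone, with a relative signal of 6.9 against a detection limit of 4.21 in Drp1LiKO cells, so it was at least 1.64-fold higher in control. Its single probe, on chr6:71763258-71763317 of mm9 was dim, and at such signals spot noise alone gave an SD of 0.347. In the deposited normalized values its log2 ratio was −0.04.

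Among genes seen on both arrays, the lowest ratio was that of Mrpl28, a large subunit protein, with a relative signal of 1134 in control and 882 in Drp1LiKO cells (−0.36). Mrpl20, which in bacteria is among the first proteins to bind the large subunit RNA, had 9075 and 7261 (−0.32). Mrpl14, on the face of the large subunit that meets the small one, had 7858 and 6371 (−0.30). These 3 genes all have bacterial homologues, and each was between 1.23- and 1.29-fold lower in Drp1LiKO cells.

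The small subunit had 4 genes among the 10 lowest. Mrps28 had a relative signal of 2770 in control and 2226 in Drp1LiKO cells (−0.32). Mrps25, a protein without a bacterial homologue, had 3813 and 3126 (−0.29). Mrps7, whose bacterial homologue starts the assembly of the small subunit head, had 5499 and 4527 (−0.28). Its second probe was lower too, at 1429 and 1080 (−0.40), so that both stretches of the message gave one direction. Mrps24 had 1639 and 1376 (−0.25).

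The remaining 3 of the 10 lowest belong to the large subunit. Mrpl49 had a relative signal of 736 in control and 616 in Drp1LiKO cells (−0.26). Mrpl33 had 24709 and 20810 (−0.25). Mrpl42 had 3515 and 2969 (−0.24). Neighbors in this order differ by less than the spot noise, so the order itself is not resolved.

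The upper end was led by Mrpl55, a small protein of the large subunit, with a relative signal of 2482 in control and 3201 in Drp1LiKO cells (0.37, or 1.29-fold). Mrpl9 had 1036 and 1255 (0.28). Mrpl36, one of the smallest ribosomal proteins, had 1046 and 1264 (0.27). Mrpl23, whose bacterial homologue lies at the exit of the tunnel for the nascent chain, had 2341 and 2828 (0.27). Mrps30, which despite its name is a large subunit protein, had 1613 and 1900 (0.24). All 5 were higher in Drp1LiKO cells by between 1.18- and 1.29-fold.

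Of the small subunit, Mrps31 had a relative signal of 1267 in control and 1594 in Drp1LiKO cells (0.33) at its brightest probe. Its other probe was dim, at 18.5 and 15.9, and gave the opposite sign (−0.21). Mrps2, whose bacterial homologue binds late in assembly, had 543 and 622 (0.20), and Mrps35 had 398 and 455 (0.19). All 20 of these highest and lowest genes had the same sign in every one of the 11 settings of scaling, background correction, filter and probe choice. They were picked as the most extreme ratios of these same arrays, so a constant sign is no separate support. The sizes did move: Mrps2 fell to 0.02 in the deposited normalized values, and the lowest value of Mrps31 over the settings was 0.06.

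Between these ends the genes lay close together. From −0.2 to −0.1 were 15 genes: Mrpl4, Mrpl10, Mrpl12, Mrpl17, Mrpl24, Mrpl37, Mrpl40, Mrpl54, Mrps6, Mrps11, Mrps12, Mrps14, Mrps15, Mrps17 and Mrps27. From 0.1 to 0.2 were 14: Mrpl1, Mrpl2, Mrpl22, Mrpl27, Mrpl32, Mrpl41, Mrpl43, Mrpl44, Mrpl53, Mrpl57, Mrps2, Mrps5, Mrps34 and Mrps35. Beside Mrpl35 and the 10 lowest, 2 further genes were at least 0.2 lower. These were Mrpl13, described with its second probe below, and Mrpl18, a large subunit protein whose bacterial homologue binds 5S ribosomal RNA, with a relative signal of 1314 in control and 1132 in Drp1LiKO cells (−0.22). In Mrps5 and Mrps33, at 0.11 and 0.08, the deposited normalized values gave the other sign, at −0.25 and −0.17. The second probe of Mrps5 had 279 in control and 371 in Drp1LiKO cells (0.41). Other probes of Mrps33 gave 0.18 and 0.15.

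**Figure D2:**
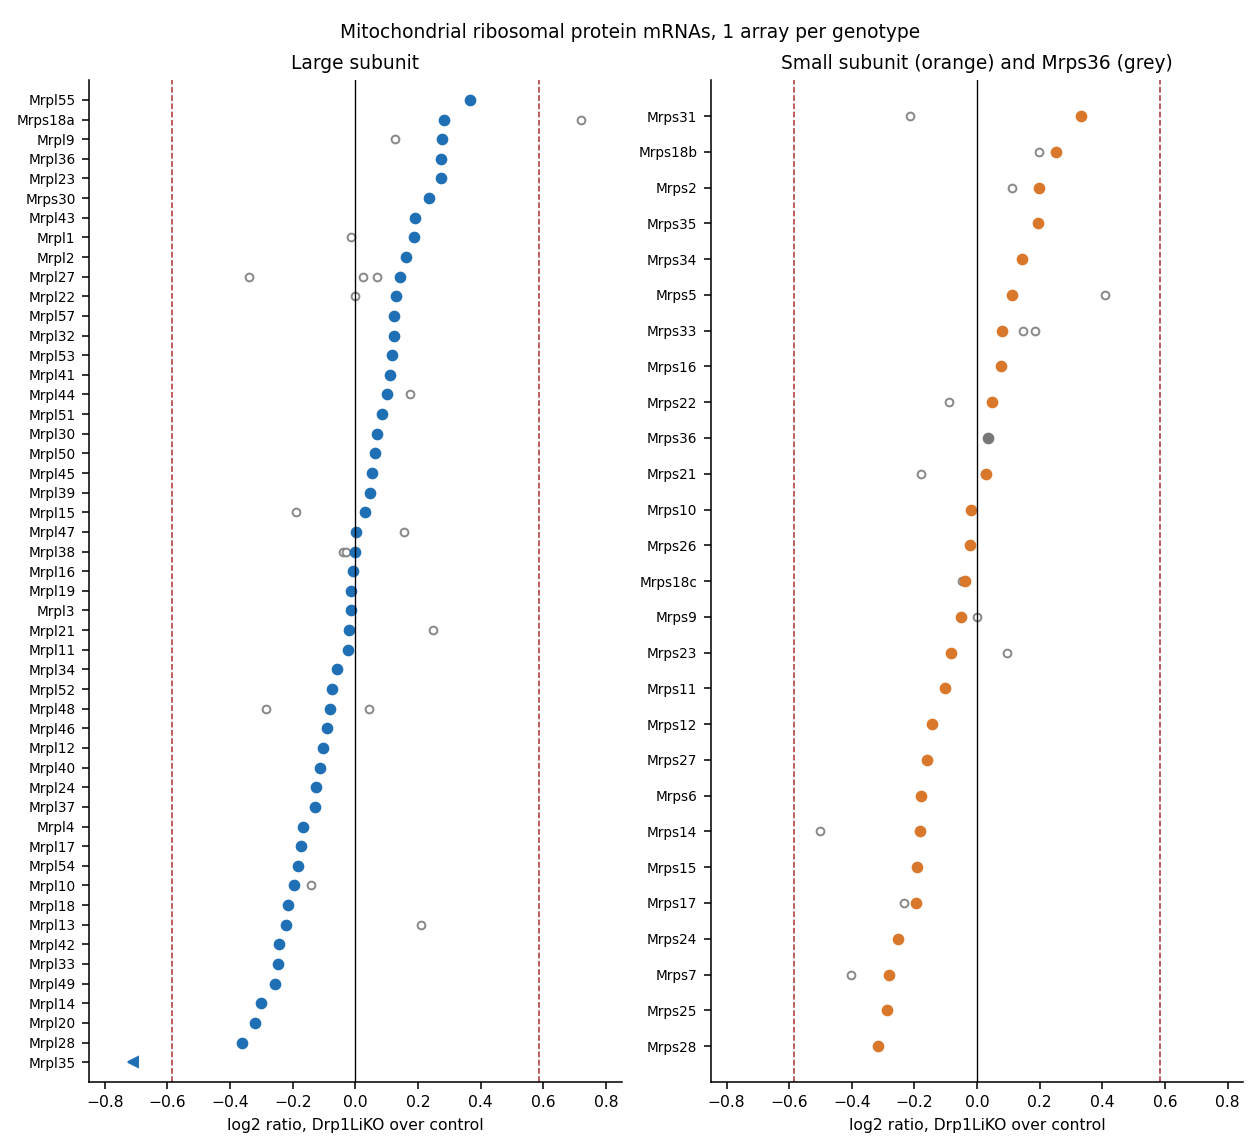
Log2 ratio of Drp1LiKO over control for the 77 genes, large subunit on the left and small subunit with Mrps36 on the right, ordered by ratio. Filled points are the brightest probe of each gene, the triangle is Mrpl35, whose ratio is a bound, open circles are the 33 other probes compared, 1 of which (of Mrpl27) was above background on a single array, and dashed lines mark 1.5-fold. The filled points run through 0 in both panels without a gap.

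Mammals have 3 homologues of the bacterial protein S18, each with a place of its own: Mrps18a belongs to the large subunit, and Mrps18b and Mrps18c to the small one. Mrps18a had a relative signal of 2503 in control and 3046 in Drp1LiKO cells (0.28), and its dim second probe had 8.98 and 14.8 (0.72). Mrps18b had 8676 and 10335 (0.25) at its brightest probe, and its other compared probes gave 0.25 and 0.20. Mrps18c had 3229 and 3146 (−0.04), with −0.05 at its other probe. The first 2 were thus higher at every compared probe, and the third was within 0.05 of 0. The closest probes of Mrps18b share 55 of 60 bases and those of Mrps18c 53, so they are not separate readings of the message.

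The subunits had medians close to each other. The 50 large subunit genes had a median log2 ratio of −0.01, with 23 higher and 27 lower (54%) in Drp1LiKO cells. The 26 small subunit genes had a median of −0.04, with 10 higher and 16 lower (61.5%). Of all genes compared, 55.5% were lower. In the deposited normalized values the small subunit median was −0.11. Mrps36, the enzyme component with a ribosomal name, had a relative signal of 1306 and 1337 (0.03).

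Proteins with and without a bacterial homologue were also set side by side. The 48 genes with one had a median of −0.03, with 30 lower (62.5%), and the 28 without had 0.05, with 13 lower (46.4%). Of all genes compared, 55.5% were lower. Within the small subunit, 12 of 17 genes with a homologue were lower (70.6%, median −0.10), against 4 of 9 without (44.4%, median 0.05). The SD of the log2 ratio over the genes was 0.21 in the first class and 0.16 in the second, and the difference between them was not tested.

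Some proteins whose place in the ribosome is well known were read off after their values were seen. Mrps12, which lies at the decoding center of the small subunit, had a relative signal of 2614 in control and 2364 in Drp1LiKO cells (−0.14). Mrpl11 and Mrpl12, of the stalk to which elongation factors bind, had 4576 and 4500 (−0.02) and 5638 and 5246 (−0.10). Mrpl45, which holds the ribosome to the inner membrane near the tunnel exit, had 2903 and 3009 (0.05). Mrpl3, close to the site where peptide bonds form, had 1396 and 1382 (−0.02). None of these 5 lay beyond 0.15 of 0.

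How far a single probe can be trusted was visible in the genes with several. Of the 77 genes, 47 had 1 probe and 30 had 2 or more, and 26 had at least 2 probes above background on both arrays, 58 probes in all. In 16 of the 26 all probes had the same sign. In the other 10, Mrpl1, Mrpl13, Mrpl15, Mrpl21, Mrpl22, Mrpl48, Mrps21, Mrps22, Mrps23 and Mrps31, they did not. The lowest and highest ratio of a gene lay a median of 0.14 apart, under 0.1 in 8 genes, from 0.1 to 0.2 in 8 and 0.2 or more in 10. The spread between probes of a gene was therefore of the size of the differences between genotypes.

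The widest spread was 0.55, in Mrps31. Mrpl13 gave −0.22 at its bright probe, with 3442 in control and 2949 in Drp1LiKO cells, and 0.21 at a probe with a control signal of 21.8. Mrpl21 gave −0.02 and 0.25 at 2 bright probes. Mrpl15 gave 0.03 at its brightest probe and −0.19 at another with a control signal of 506. Mrps21 ran from −0.18 to 0.03 over 3 probes, 2 of which share 40 bases. Mrpl48 ran from −0.29 to 0.04 over 3, the dimmest with a control signal of 7.94. Mrpl1 gave 0.19 and −0.01, and Mrpl22, Mrps22 and Mrps23 spanned 0.13, 0.14 and 0.18. A disagreement in sign thus occurred at bright and at dim probes. No gene had probes over 1 apart.

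**Figure D3:**
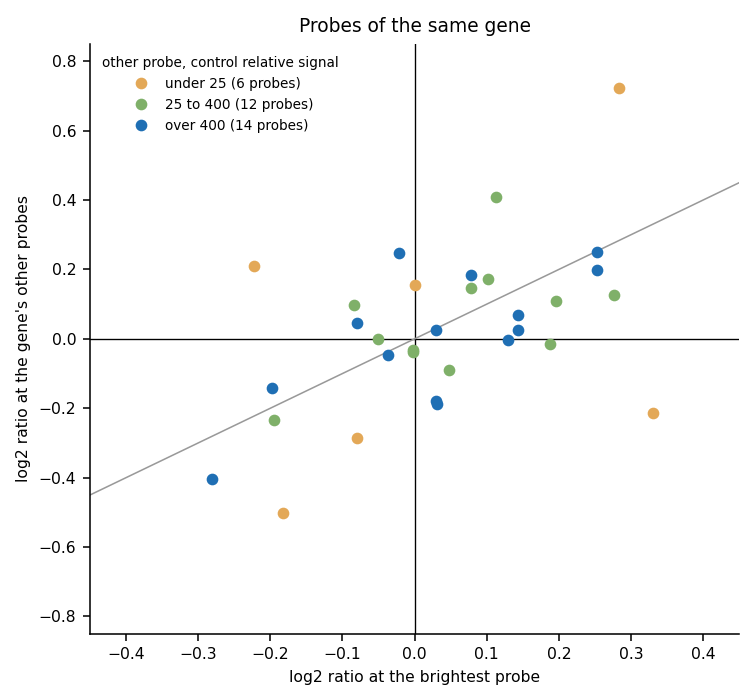
Log2 ratio at the brightest probe of a gene (horizontal) and at each of its 32 other probes above background on both arrays (vertical), with the line of equality. Colors give the relative signal of the other probe in control cells. Points farthest from the line belong to probes under 25, and points at the upper left and lower right are probes that disagree in sign.

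The genes are spread over 17 chromosomes, with at most 10 on 1 chromosome. RefSeq promoters of GRCm38.p6, each from 250 bases before to 50 bases after a transcript's start, were found for 68 of the 77 genes, 74 promoters in all. They had a median GC content of 58.5% and a ratio of observed to predicted CpG of 0.82, where the 21262 promoters of protein-coding genes had 56.3% and 0.567. The 4 short motifs were searched on both strands, the first 3 named for factors known to bind promoters of nuclear genes for mitochondrial proteins. The NRF1 motif GCGCATGC, whose reverse complement can overlap it, was in 10.8% of these promoters and 3.51% of all. The ETS motif CCGGAAG, read by GABPA, was in 33.8% and 11.6%. The YY1 motif AAGATGGC was in 16.2% and 3.05%, and TATAAA in 6.76% and 12.6%. A match of these letters is not a measured site.

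The ratios were set beside the motifs, as a description with no test. The 25 genes with the ETS motif had a median of −0.02, as did the 43 without. The 8 with the NRF1 motif had 0.08 and ran from −0.25 to 0.28, and the 60 without had −0.02. The 12 with the YY1 motif had −0.15, from −0.71 to 0.28, and the 56 without had a median within 0.01 of 0. The 5 with TATAAA had −0.09, from −0.25 to −0.01, and the 63 without had −0.02. Genes with the NRF1 and ETS motifs stood at both ends of the set, as the following upstream sequences show, 250 bases each up to the base before the start, with the NRF1 and ETS motifs in capitals. Each of the 3 promoters holds both motifs, and in Mrpl33 and Mrps18b the ETS match lies outside the bases printed. Mrpl22 (chr11:58171414-58171663, plus strand) had a ratio of 0.13, Mrpl33 (chr5:31613701-31613950, plus strand) is among the 10 lowest and Mrps18b (chr17:35916441-35916690, minus strand) among the 10 highest.
Mrpl22 upstream: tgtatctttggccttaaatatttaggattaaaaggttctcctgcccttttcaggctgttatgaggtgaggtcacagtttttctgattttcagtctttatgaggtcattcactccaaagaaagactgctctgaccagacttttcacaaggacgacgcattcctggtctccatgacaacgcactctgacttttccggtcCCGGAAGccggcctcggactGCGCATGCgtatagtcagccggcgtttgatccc
Mrpl33 upstream: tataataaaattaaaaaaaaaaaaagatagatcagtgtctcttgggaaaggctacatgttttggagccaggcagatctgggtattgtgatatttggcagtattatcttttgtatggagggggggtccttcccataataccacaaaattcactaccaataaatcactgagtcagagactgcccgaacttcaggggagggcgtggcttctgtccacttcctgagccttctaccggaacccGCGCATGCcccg
Mrps18b upstream: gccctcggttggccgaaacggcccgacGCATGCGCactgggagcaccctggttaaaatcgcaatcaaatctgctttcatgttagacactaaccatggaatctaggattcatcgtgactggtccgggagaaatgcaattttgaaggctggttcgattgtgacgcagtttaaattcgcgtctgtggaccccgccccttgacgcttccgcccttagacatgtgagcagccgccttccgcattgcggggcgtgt

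Many of these genes start back to back with another gene. A start on the opposite strand within 1000 bases upstream was listed for 24 of the 68 genes (35.3%) and for 8.48% of protein-coding genes, at distances from 32 to 935 bases, and within 250 bases for 19. The bases between the 2 starts are printed for 5 such pairs, read on the strand of the first gene, with the ETS motif in capitals. The first is the pair of 2 ribosomal proteins (chr7:78783090-78783130). Next are the pairs with the largest contrast at such short distance (chr11:94653744-94653790 and chr14:57826164-57826238). The last 2 pair a ribosomal protein with a mitochondrial tRNA synthetase (chr7:28741822-28741967, minus strand) and with the helicase of mitochondrial DNA (chr19:45006443-45006557, minus strand). All positions are in GRCm38.p6.
Mrps11 and Mrpl46: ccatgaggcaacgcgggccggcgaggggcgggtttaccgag
Mrpl27 and Eme1: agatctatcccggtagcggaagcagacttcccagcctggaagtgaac
Mrpl57 and Ska3: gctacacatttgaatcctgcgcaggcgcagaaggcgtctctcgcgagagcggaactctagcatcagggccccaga
Mrps12 and Sars2: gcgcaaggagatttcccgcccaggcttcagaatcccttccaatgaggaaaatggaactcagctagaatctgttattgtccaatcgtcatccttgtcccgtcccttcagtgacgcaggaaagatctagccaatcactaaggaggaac
Mrpl43 and Twnk: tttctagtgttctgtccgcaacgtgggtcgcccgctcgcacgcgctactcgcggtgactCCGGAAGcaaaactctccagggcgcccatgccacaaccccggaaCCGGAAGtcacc

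Mrps11 and Mrpl46, 42 bases apart and in different subunits, were nearly alike. Mrps11 had a relative signal of 403 in control and 376 in Drp1LiKO cells (−0.10) and Mrpl46 1072 and 1006 (−0.09). Mrps12 and Sars2, the mitochondrial seryl-tRNA synthetase, were also close (−0.14 and −0.11). Mrpl43 had 4719 and 5382 (0.19), whereas Twnk, the helicase of mitochondrial DNA, listed under its older name Peo1, had 39.5 and 33.2 (−0.25).

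The 22 partners that are not ribosomal proteins of the set had a median of −0.04 and ran from −1.65 to 0.44. At least 1.5-fold lower were 3 of them (13.6%, where 10.3% of all genes were), and 0 were as much higher. All 3 are genes of cell division or chromosome repair, singled out after their values were seen. Ska3, of the kinetochore, had a relative signal of 64.7 in control and 20.6 in Drp1LiKO cells (−1.65), and Mrpl57, whose start lies 76 bases away, had 5648 and 6158 (0.12). Ncapd2, of condensin, had 603 and 271 (−1.15), and Mrpl51, 614 bases away, had 6263 and 6649 (0.09). Eme1, a subunit of a structure-specific nuclease, had 18.9 and 10.9 (−0.79), and Mrpl27, 48 bases away, had 1838 and 2029 (0.14). At signals as dim as those of Eme1, spot noise alone gave an SD of 0.347. Other probes of Mrpl27 gave 0.03 and 0.07, and a dim one, above background on a single array, gave −0.34. The 3 partners were picked as at least 1.5-fold lower, so their ratios below 0 follow from that choice. At their brightest probes the 3 ribosomal proteins had ratios from 0.09 to 0.14. That of Mrpl51 was under 2 times the spot noise and turned to −0.07 in the deposited normalized values.

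**Figure D4:**
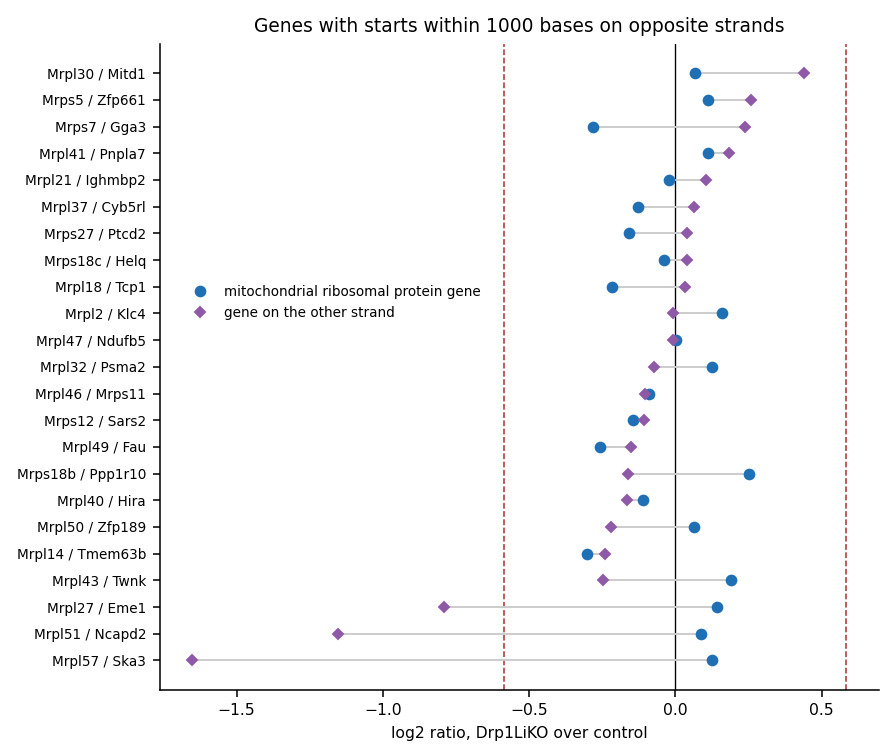
Log2 ratio of Drp1LiKO over control for the 23 pairs of genes that start within 1000 bases of each other on opposite strands, ordered by the ratio of the second gene. Circles are mitochondrial ribosomal proteins, diamonds their partners (for Mrpl46, the partner Mrps11 is one of the set too), and dashed lines mark 1.5-fold. The circles lie from −0.30 to 0.25, and 3 diamonds lie left of the dashed line.

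The other genes of mitochondrial translation were taken from lists, by role. Of mitochondrial ribosomal proteins that carry other names, 6 were compared, with a median of −0.17. Lower were 4 of them (66.7%, beside 55.5% of all genes). Dap3, a GTP-binding protein of the small subunit, had a relative signal of 4840 in control and 3992 in Drp1LiKO cells (−0.28). Gadd45gip1, a large subunit protein near the tunnel exit, had 3604 and 3082 (−0.23). The highest were Chchd1, with 8610 and 8914 (0.05), and Aurkaip1, with 10591 and 10814 (0.03). None reached 1.5-fold, and the median was −0.05 in the deposited normalized values.

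Genes of ribosome assembly and ribosomal RNA modification numbered 26, and 14 were lower (53.8%, beside 55.5% of all genes). None passed 1.5-fold, and their median was −0.01. The median lay between −0.06 and 0.03 over the 11 settings. The lowest was Tfb1m, which methylates the small subunit RNA, with 136 and 97.3 (−0.48). Nsun4, another methyltransferase of that RNA, had 110 and 83.3 (−0.41). Mrm1, a methyltransferase of the large subunit RNA, had 213 and 270 (0.35), and Mtg1, a GTPase of large subunit assembly, had 717 and 863 (0.27).

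Translation factors were higher in Drp1LiKO cells for 10 of 15 genes (66.7%, where 44.5% of all genes were higher). Their median was 0.05. Mtif2, the initiation factor that brings the first tRNA, had 3889 and 5046 (0.38). Gfm2, which splits ribosomes for recycling, had 252 and 291 (0.21). Tufm, the elongation factor that delivers tRNAs, had 4928 and 4418 (−0.16), and Guf1 had 51.4 and 47.8 (−0.10).

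The genes that charge mitochondrial tRNAs were lower for 18 of 22 (81.8%, where 55.5% of all genes were lower), with a median of −0.14, and none passed 1.5-fold. In the deposited normalized values 12 of 22 were lower, with a median of −0.08. Cars2, for cysteine, had 138 and 96.1 (−0.52), and Vars2, for valine, had 77.7 and 54.3 (−0.52). Tars2, for threonine, had 1615 and 2126 (0.40), and Rars2, for arginine, had 323 and 365 (0.18).

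The messages that this ribosome translates showed larger differences than the messages for its own proteins. Of the 13 messages of mitochondrial DNA, 11 had a probe of their name. Lower were 9 of the 11 (81.8%, where 55.5% of all genes were lower). The median was −0.46, and it lay between −0.39 and −0.46 in all 11 settings. At least 1.5-fold lower were 4 of the 11, where 10.3% of all genes were, and none reached a Z score of 2. ND5 had a relative signal of 4781 in control and 2412 in Drp1LiKO cells (−0.99), ND4L 12877 and 6859 (−0.91), CYTB 30014 and 16203 (−0.89) and ND4 19779 and 11250 (−0.81). ND3 had 9830 and 11871 (0.27) and ND6 194 and 219 (0.17). These were the only 2 that were higher. The probe for ND3 is placed on the minus strand of chromosome 1 (chr1:24619613-24619672). The one for ND6 is the only one of the list on the minus strand of mitochondrial DNA. Whether these positions bear on the ratios was not tested.

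Of the 10 transcription factors and coactivators of mitochondrial biogenesis, 4 were higher and 6 lower (60%, beside 55.5% of all genes). Their median was −0.11. The median turned to 0.07, with 3 of 10 lower, in the deposited normalized values, and to 0.04, with 4 of 10 lower, with the median of a gene's probes, so no direction is given for this list. Ppargc1a, the coactivator PGC-1α, was the only gene of these lists to pass a Z score of 2, with 42.5 in control and 137 in Drp1LiKO cells (1.69), and its relative Ppargc1b had 38.4 and 60.03 (0.64). Tfam, a transcription factor that also packages mitochondrial DNA, had 752 and 578 (−0.38), and Myc had 1269 and 950 (−0.42). Nrf1 and Gabpa, whose motifs were searched above, had 155 and 150 (−0.05) and 160 and 139 (−0.21).

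The proteins of the cytosolic ribosome gave a narrower spread. They were compared for 77 of 81 names, with a median of −0.10 and an SD of 0.09. In Drp1LiKO cells 71 were lower (92.2%, beside 55.5% of all genes) and 6 higher. The median turned to 0.02 after quantile normalization, so no direction is given for this family. The lowest were Rps4l (−0.53) and Rps10 (−0.25), and the highest Rpl17 (0.11) and Rpl30 (0.08). Mitochondrial ribosomal proteins scattered about 0 with an SD of 0.19. Most cytosolic probes were brighter, and many were averaged over up to 10 spots, whereas each mitochondrial ribosomal protein was read on a single spot. The 2 spreads thus differ in noise too, and the part of noise in them was not tested.

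**Figure D5:**
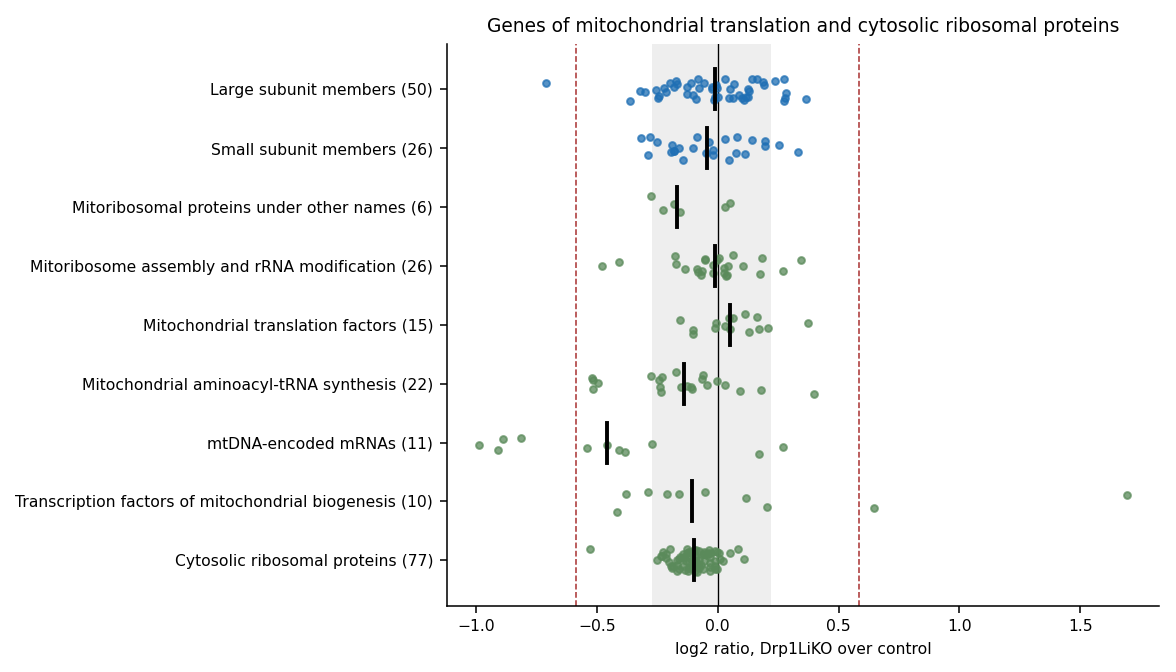
Log2 ratio of Drp1LiKO over control for the genes of each list, 1 point per gene with the number of genes in brackets. Black bars are medians, the grey band holds the central part of all genes from −0.27 to 0.21, and dashed lines mark 1.5-fold. The ribosomal proteins lie around 0, and most messages of mitochondrial DNA lie to the left of the band.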

How the data were processed

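RNA of control and Drp1LiKO primary hepatocytes was read on 1 Agilent SurePrint G3 8x60K v2 array each. The authors deposited, per array, the scanner output with a processed intensity for each spot, background-subtracted by Feature Extraction (version 9.5.1.1 per the submitters' processing notes, 10.7.1.1 in the file headers). A second deposited table holds normalized intensities. Across probes, its values rank like the control array (correlation 0.999999) but less like the Drp1LiKO array (0.958), so it entered as one of the alternatives.

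From the processed intensities, control spots and outlier spots were left out, log2 values of a probe's spots were averaged, and each array was scaled to its 75th percentile, whose difference between the arrays was 0.18 on the log2 scale, and that of 7 spike-in probes was 0.14. Probes that passed the background limit of Feature Extraction on either array were kept. A dimmer signal was raised to the lowest signal well above background on that array, which makes the ratio a bound. A gene was its brightest probe. Z scores refer to the 30275 probes that remained (mean −0.01, SD 0.65). With 1 array per genotype, precision is limited by the number of arrays, and no test was possible.

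Members and lists were chosen with earlier results of these data known. Named were the 10 highest and 10 lowest members seen on both arrays, the Mrps18 genes, members with probes that disagree, Mrpl35, Dnm1l, and the 2 highest and 2 lowest genes of each list with those past the Z score threshold. Other genes were named for their role, their promoter or their position after their values were seen. All 77 names are symbols in the RefSeq table of GRCm38.p6, and the 99 probes with an accession in that table had the same symbol there. RefSeq lists 6 pseudogenes named after 4 members (Mrpl23, Mrpl27, Mrpl48 and Mrps36), whose messages could share signal. Probes are placed in mm9 by the files, and promoters are those of RefSeq in GRCm38.p6. The 2 builds were not joined.

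The steps were tested on simulated data, a Drp1LiKO array made from the control array with noise and 200 changed genes among 18356, of which 200 were recovered, and with the members shifted by −0.3, recovered as −0.29. The changed genes were above background and were given changes far larger than any difference of the members. Their recovery thus does not show that a difference of the members' size would be found in a single gene. Software was limma 3.58.1 under R 4.3.3, and pandas 2.3.3, numpy 2.4.6 and matplotlib 3.10.9 under Python 3.11.15.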

Additional observations from a re-analysis of the deposited data

How the results depend on the processing

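The alternatives were the 75th percentile over probes seen on both arrays, quantile normalization, spike-in scaling, normexp background correction with an offset of 50, the deposited normalized values, a stricter and a looser filter on dim probes, values without a floor, inclusion of outlier spots, the median of a gene's probes and 2 other Z scores. The median log2 ratio of the members lay between −0.03 and 0.02, and 34 to 47 members were lower. Of 62 recomputed values, 58 were medians that moved by less than 1 SD of spot noise at the members' signal (0.053) or counts within 1.5 times the reported one, and 4 moved further. The small subunit median was −0.11 with the deposited normalized values. Members past 1.5-fold lower, 1 as reported, were 0 with normexp, 0 with the deposited values and 0 with probes seen on both arrays, each time because Mrpl35 dropped below the limit or out of the comparison. Over 11 settings, 31 members were below 0 in every one that gave them a value, 23 above 0 in every one and 23 on both sides. Mrpl35, one of the 31, had a value in 10, since the filter for probes seen on both arrays left it out. The deposited values differed from the reported ratio by over 0.2 in 4 members, among them Mrpl35. With no filter on dim probes the median of all genes was −0.47, and that of the members stayed at −0.02. No paired analysis was possible because there was 1 array per genotype, and no replicate could be left out. For the deposited values, the detection limit was the 1st percentile of control values, a choice made after the data were seen. Differences under the spot noise, and the variation between mice, cannot be resolved with these arrays.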
